A study of Homo sapiens with 8 samples.

Results

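ICAM1 and 9 further genes that NF-kappaB is known to control were followed in Saos-2 cells, an established human osteosarcoma line labelled as p53-null. The genes were ICAM1, NFKBIA, TNFAIP3, CXCL8, CXCL1, IL6, CCL2, RELB, NFKB2 and PTX3, and each was read from every probe set that the platform annotation assigns to that gene alone. The 10 genes are among 19775 that the array names in this way, and 17 of 41091 probe sets belong to them. The members were picked by name with earlier results of these data known, so their differences are given as a description. The study asked how gene expression responds in cells without p53 to a compound labelled Prima. Untreated Saos-2 cells (3 arrays, replicates 1, 2 and 3), Saos-2 cells given Prima for 6 h (3 arrays, replicates 1, 2 and 3) and Saos-2 cells given Prima for 12 h (2 arrays, replicates 1 and 3) were profiled, and all of them carry the p53-null label. A 12 h replicate 2 was not analysed here, no dose is given in the labels, and nothing says whether replicates were separate cultures, so p-values measure only the spread between these samples.

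NF-kappaB is a family of dimeric transcription factors that rest in the cytoplasm, bound by inhibitor proteins. Receptors for TNF, interleukin-1 and microbial products activate the IKK kinase complex, which marks the inhibitors for destruction and frees the dimers to enter the nucleus. Target genes encode chemokines, cytokines and adhesion molecules, and also the inhibitors that end the response. In cells of bone, NF-kappaB is known for its part in inflammation and in the signals between osteoblasts and osteoclasts.

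The promoters of the members are shown first because the genes were grouped as NF-kappaB targets. The genes were picked by name as known targets, so the shares below describe them and do not test the grouping. RefSeq promoters of 300 bases (250 before the transcript start and 50 from it, GRCh38.p14) were given for 8 of the 10 members. The kappaB consensus, searched on both strands, was in a promoter of 6 of these 8 genes, against 7.09% of 27305 genes with a promoter. The shorter motif GGANNTTCC, which overlaps the consensus at most of these places and reads the same on both strands at some of them, was in 7 of the 8, against 5.57%. At least 1 of these motifs was in a promoter of each of the 8, against 11.06% of all genes. A match of letters is a description and not a measured binding site.

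For each gene 1 stretch with matches is printed with 20 bases on either side, 5′ to 3′ on the strand of the gene, with the letters matched by either motif in capitals. NFKB2 has 3 RefSeq promoters, of which 1 is shown, and a further NFKBIA match, from 242 bases before the start, is not shown.
ICAM1: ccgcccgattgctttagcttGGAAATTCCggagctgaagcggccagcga
NFKBIA: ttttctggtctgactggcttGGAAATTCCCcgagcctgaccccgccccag
TNFAIP3: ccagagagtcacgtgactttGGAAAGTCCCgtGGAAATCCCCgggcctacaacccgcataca
NFKB2: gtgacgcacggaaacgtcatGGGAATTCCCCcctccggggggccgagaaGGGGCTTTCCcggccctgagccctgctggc
CXCL8: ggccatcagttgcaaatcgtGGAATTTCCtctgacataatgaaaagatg
CXCL1: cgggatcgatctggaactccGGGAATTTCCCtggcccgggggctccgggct
IL6: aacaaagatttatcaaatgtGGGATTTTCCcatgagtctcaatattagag
PTX3: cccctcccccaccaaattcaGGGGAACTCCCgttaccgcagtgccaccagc

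The ICAM1 stretch lies at chr19:10270914-10270962, and its match begins 186 bases before the start. The NFKBIA stretch lies at chr14:35404801-35404850 on the minus strand, with a match from 81 bases before the start. The same ICAM1 letters, GGAAATTCC, stand in the NFKBIA stretch. On TNFAIP3 (chr6:137867172-137867233) 2 places match, beginning 67 and 55 bases before the start. The NFKB2 stretch (chr10:102394451-102394529) has overlapping matches from 107 and 106 bases before the start and a further one from 78 bases before it. CXCL8 (chr4:73740458-73740506) and CXCL1 (chr4:73869294-73869344) both hold GGAATTTCC, beginning 91 bases before the start in CXCL8 and 78 in CXCL1. IL6 (chr7:22727107-22727156) matches from 73 bases before the start and PTX3 (chr3:157436733-157436783) from 97. The TNFAIP3 and NFKB2 stretches fall within the annotated span of their gene, upstream of the transcript start used, and the other 6 lie outside it.

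Values below are MAS5 signals, a probe-set intensity on a linear scale that the authors set to a 2% trimmed mean of about 100.01 on every array. Both arrays of replicate 2 differed from the rest, since their median signals were 47.5 at 6 h and 50.8 untreated, while the 6 remaining arrays had medians of 14.2 to 24.9, so dim probe sets read higher on the replicate 2 arrays. RNA integrity, judged by ACTB signal at the 3′ end over the 5′ end, also varied, with 1.73 for 6 h replicate 1, 2.29 for 12 h replicate 1 and 1.125 to 1.38 for the rest, while the same ratio for GAPDH lay between 0.927 and 1.038 on all 8 arrays. Of 8 measured osteoblast markers 5 stood above the array median on every array, while 2 of 8 leukocyte, 0 of 7 endothelial and 0 of 6 epithelial markers did. The epithelial marker EPCAM fell short only on untreated replicate 2, at 26.0, and read 121.7 to 244.6 on the remaining arrays. The spread within groups had a median SD of 1.46 on the log2 scale for probe sets between the 25th and 50th percentile of brightness and of 0.401 between the 75th and 90th. Differences were tested with limma over 12063 genes whose brightest probe set exceeded the median of all probe sets, and 7 of the 10 members passed that filter. CXCL1, CCL2 and RELB were too dim to test.

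In none of the comparisons did a member pass the test. For 6 h against untreated, 0 of the 7 tested members and 0 of all genes (0%) had an adjusted p under 0.05 by limma with Benjamini-Hochberg adjustment, and 79 genes had an unadjusted p under 0.05 (0.655%). For 12 h against untreated the count was again 0 (0%), with 74 genes under an unadjusted 0.05 (0.613%), and for 12 h against 6 h it was 0 (0%), with 88 (0.73%). These shares lie under the share that an unadjusted 0.05 gives when no gene differs, so counts of 0 do not show that nothing changed. This fit has no replicate block, although same-numbered arrays deviated together. With the block the counts were also 0. Adjusted p was 0.9999 for each of the 7 members in the comparisons with untreated cells and 1 in 12 h against 6 h. These comparisons share arrays, so their values are not independent of each other.

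**Figure D1:**
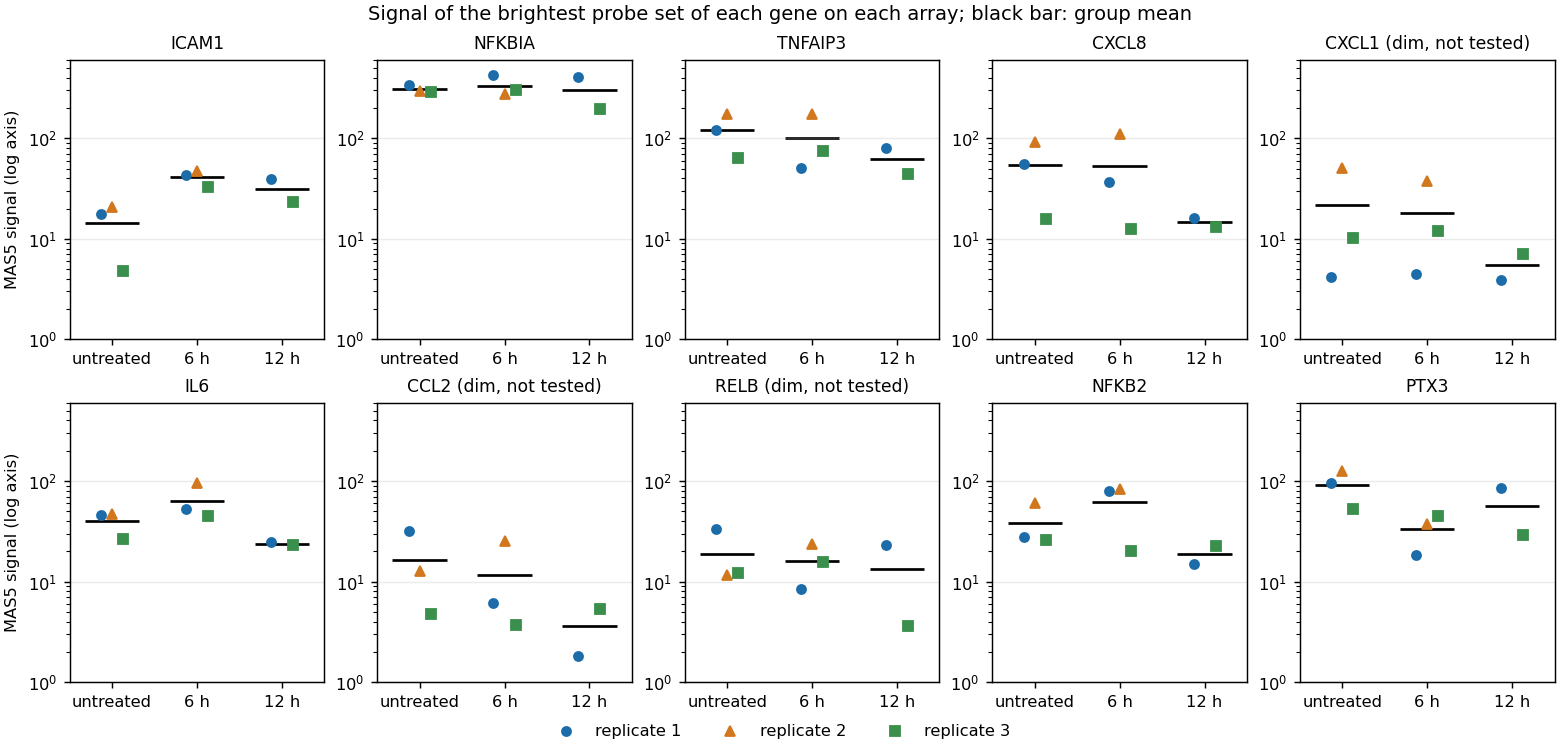
MAS5 signal (log axis) of the brightest probe set of each of the 10 genes on the 8 arrays, by group, with symbols for the replicate number and a black bar for the group mean. ICAM1 lies between 23.0 and 47.5 on the 5 treated arrays and between 4.76 and 20.8 on the untreated arrays, PTX3 is lower at 6 h, and NFKBIA is the brightest in every group.

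ICAM1, the adhesion molecule that leukocyte integrins bind, gave opposite readings from different probe sets. Its brightest probe set, 215485_s_at, had signals of 17.7, 20.8 and 4.76 in untreated cells, 43.5, 47.5 and 32.5 after 6 h, and 39.8 and 23.0 after 12 h. All 5 treated arrays lay above all untreated arrays, which held for 0.548% of all 41091 probe sets, while 0.479% lay below in the same way, among them no member. Against untreated cells the log2 difference was 1.75 ± 0.83 (SE) at 6 h, with a 95% interval from -0.04 to 3.55, and 1.33 ± 0.93 at 12 h, from -0.68 to 3.33. These are 3.37-fold and 2.51-fold on the floored signals, and with a pseudocount of 32 in place of the floor the log2 differences were 0.67 at 6 h and 0.45 at 12 h. With the replicate number as a block they were 1.75 at 6 h (limma, unadjusted p = 0.0122, adjusted p = 0.8313) and 1.58 at 12 h (unadjusted p = 0.0405, adjusted p = 0.9998). These unadjusted values come from a fit over all 19775 genes, and the adjusted ones from a fit over the genes that passed the filter. In bulk RNA a change in the number of cells with a transcript and a change in its amount per cell cannot be told apart.

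The other ICAM1 probe sets did not go with it. On 202638_s_at untreated cells had 22.6, 50.3 and 14.2, cells at 6 h had 6.65, 37.6 and 0.613, and cells at 12 h had 4.95 and 6.22. Both 12 h arrays lay under all untreated arrays, and the log2 differences were -1.59 ± 1.20 (SE) at 6 h and -2.19 ± 1.34 at 12 h. On 202637_s_at the signals were 13.8, 53.4 and 3.91 in untreated cells, 19.5, 14.7 and 1.79 at 6 h, and 4.58 and 17.5 at 12 h. These groups overlapped at both times, with log2 differences of -0.69 ± 1.27 and -0.67 ± 1.42 (SE).

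Across the 8 arrays, Pearson's r of log2 signal was -0.209 between 215485_s_at and 202638_s_at, 0.185 between 215485_s_at and 202637_s_at, and 0.675 between the remaining pair. These arrays share the replicate structure described above. For all pairs of probe sets of 1 gene in which at least 1 is under the brightness filter, the median r was 0.365 (24073 pairs). When the 3 ICAM1 probe sets were averaged, the log2 difference was -0.17 at 6 h and -0.51 at 12 h. The direction for ICAM1 is therefore that of the probe set read. Both other probe sets were under the brightness filter, and 215485_s_at stood between the 27.6th and the 63.9th percentile of its array.

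**Figure D2:**
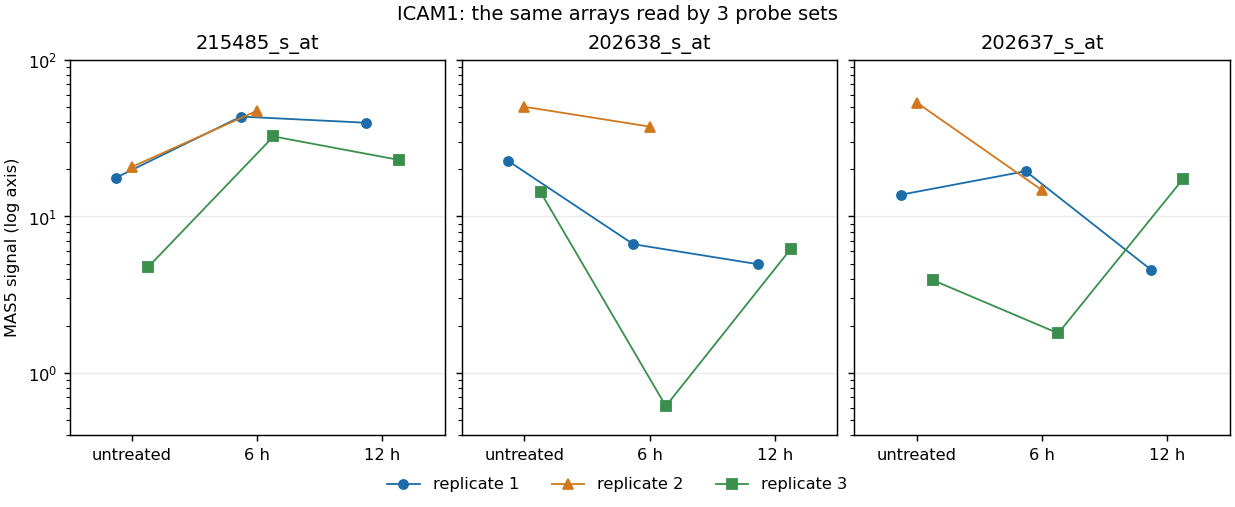
MAS5 signal (log axis) of the 3 ICAM1 probe sets by group, with a line for each replicate number. On 215485_s_at the 3 lines climb between untreated and 6 h, on 202638_s_at they descend, and on 202637_s_at they cross.

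Within arrays of the same replicate number, 215485_s_at was higher in the treated array in all 5 pairs, with log2 differences of 1.30, 1.19 and 2.77 at 6 h and 1.17 and 2.27 at 12 h. By contrast, 202638_s_at was lower in all 5, at -1.77, -0.42 and -2.58 at 6 h and -2.19 and -1.20 at 12 h, where the replicate 3 signal at 6 h was under the floor of 2.386 and was set to it. Of the 17 member probe sets 2 were higher in all 5 pairs and 2 were lower in all 5, against 5.07% and 5.28% of all probe sets. The others of these 4 were 211524_at of NFKB2, which was higher, and the PTX3 probe set, which was lower. Pairs of 1 replicate number share an untreated array, so the 5 pairs are not independent.

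**Figure D3:**
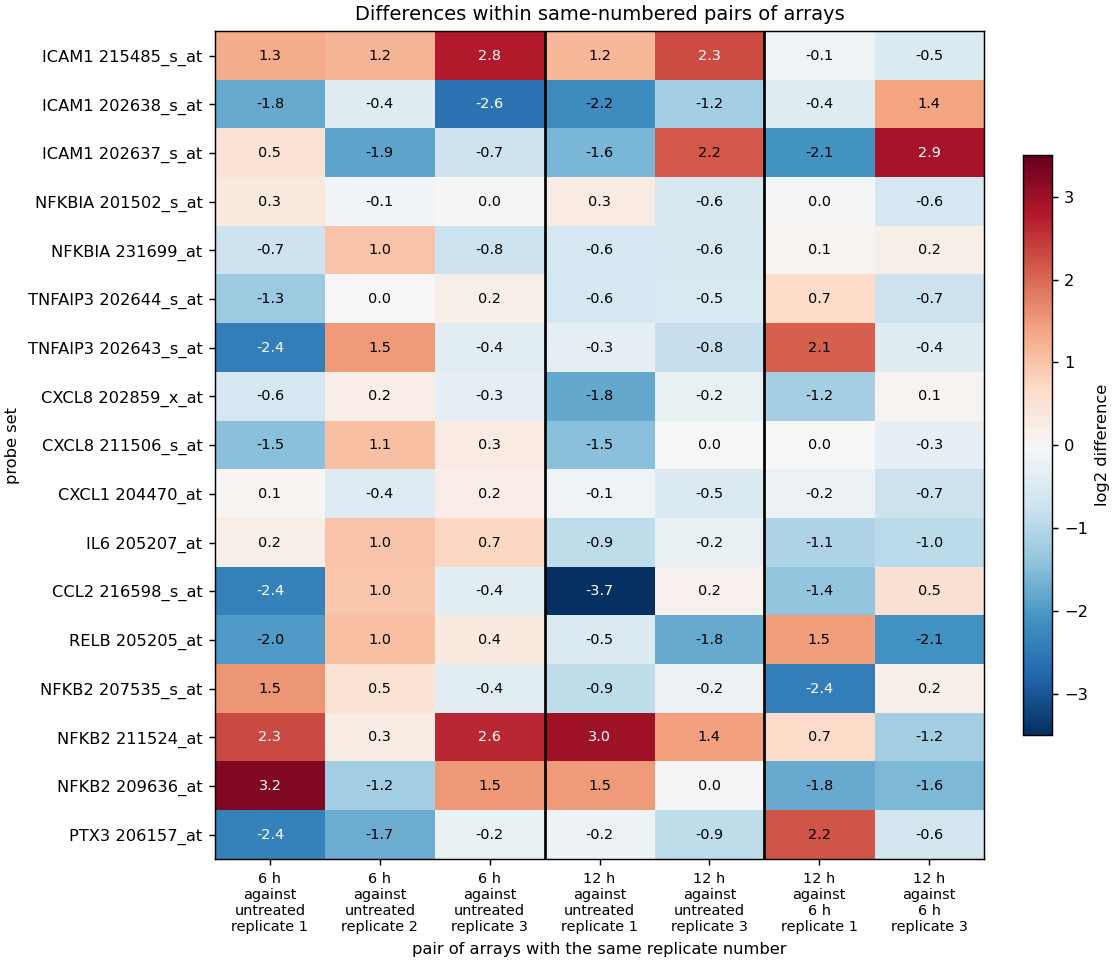
Log2 difference of each of the 17 member probe sets (rows) within each pair of arrays of 1 replicate number (columns), treated minus untreated at 6 h and at 12 h, then 12 h minus 6 h, with red for higher and blue for lower. The ICAM1 probe sets 215485_s_at and 202638_s_at have opposite colours in all 5 treated and untreated pairs.

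The inhibitors NFKBIA and TNFAIP3 had groups that overlapped on each of their probe sets in every comparison. NFKBIA, the IkappaB-alpha protein that holds NF-kappaB dimers in the cytoplasm, was the member with the narrowest spread. Its probe set 201502_s_at read 336, 298 and 292 in untreated cells, 424, 278 and 301 at 6 h, and 412 and 196 at 12 h. It stood between the 84.5th and 91.9th percentile on all arrays, and the groups overlapped. The log2 difference was 0.09 ± 0.31 (SE) at 6 h, with a 95% interval from -0.57 to 0.75, and -0.12 ± 0.34 at 12 h, from -0.86 to 0.62. At 12 h, centring each array on its median gave 0.46, where the median of all genes was 0.50. Leaving out 12 h replicate 3 gave 0.42. The second NFKBIA probe set, 231699_at, was dim at 8.69 to 24.5.

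TNFAIP3, a ubiquitin-editing enzyme that NF-kappaB induces and that shuts off signalling to IKK, averaged 120 ± 54.9 (SD, n = 3) untreated, 100.4 ± 66.4 (n = 3) at 6 h and 62.1 ± 24.9 (n = 2) at 12 h on 202644_s_at. The single signals were 122, 174 and 64.4 untreated, 50.6, 176 and 74.8 at 6 h, and 79.7 and 44.5 at 12 h, so all groups overlapped. The replicate 2 arrays were the highest of their groups, and 6 h replicate 1, at 50.6, was the lowest of the 6 h arrays. The log2 difference was -0.35 ± 0.50 (SE) at 6 h and -0.90 ± 0.56 at 12 h. The second probe set, 202643_s_at, varied with the first over the 8 arrays (r = 0.84), with log2 differences of -0.43 ± 0.78 and -0.57 ± 0.88. Without both replicate 2 arrays the 12 h difference of TNFAIP3 was -0.57. Within same-numbered pairs at 12 h, replicates 1 and 3 gave -0.61 and -0.53 on 202644_s_at and -0.33 and -0.79 on 202643_s_at. At 6 h the pairs went both ways on both probe sets.

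The subunit genes RELB and NFKB2, which together form the dimer of the non-canonical branch, had groups that mostly overlapped. RELB, with 1 probe set, was too dim to test. It read 33.0, 11.6 and 12.2 untreated, 8.39, 23.8 and 15.6 at 6 h, and 23.1 and 3.62 at 12 h, and its groups overlapped. NFKB2, whose precursor acts as an inhibitor until it is cut, read 27.7, 59.9 and 25.9 untreated, 80.1, 83.5 and 20.1 at 6 h, and 15.0 and 22.5 at 12 h on 207535_s_at. Both 12 h arrays lay under all untreated arrays, with a log2 difference of -0.93 ± 0.78 (SE), and at 6 h the groups overlapped, with 0.55 ± 0.70.

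Among the NFKB2 probe sets, 211524_at gave another picture. It read 2.66, 43.9 and 0.949 untreated, 13.2, 52.3 and 15.0 at 6 h, and 20.9 and 6.46 at 12 h, which is higher in every same-numbered pair but overlapping between groups. The untreated replicate 2 array alone exceeded the 12 h arrays and 2 of the 6 h arrays. The third, 209636_at, ran from 1.77 to 25.4 with 2 arrays at or under the floor of 2.386. For the first probe set the 12 h difference was -0.55 without both replicate 2 arrays.

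The chemokine genes were lower at 12 h than in untreated cells by their means, but their arrays overlapped on the brightest probe sets. CXCL8, the neutrophil-attracting interleukin-8, had 55.8, 92.9 and 15.7 untreated, 36.6, 109.7 and 12.5 at 6 h, and 16.2 and 13.2 at 12 h on 202859_x_at. The highest untreated and 6 h values were those of replicate 2, while replicate 3 read 15.7, 12.5 and 13.2 in these 3 groups. The log2 difference was -0.23 ± 0.88 (SE) at 6 h and -1.57 ± 0.98 at 12 h. The 12 h value was -1.02 without both replicate 2 arrays and -0.90 with the replicate number as a block. Within pairs it was -1.78 in replicate 1 and -0.25 in replicate 3. The suffix of this probe set marks some probes as able to match other sequences, and 211506_s_at of the same gene was at or under the floor on 4 of 8 arrays.

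CXCL1, which acts on the same neutrophil receptor, read 4.18, 50.8 and 10.2 untreated, 4.43, 37.4 and 12.0 at 6 h, and 3.87 and 7.15 at 12 h. Within replicate 1 all 3 values lay between 3.87 and 4.43, and the only signals above 12.0 were on the replicate 2 arrays. CCL2, a monocyte chemoattractant, read 32.1, 12.9 and 4.76 untreated, 6.18, 25.3 and 3.70 at 6 h, and 1.84 and 5.33 at 12 h, a range that overlapped between all groups. Its log2 difference at 12 h was -1.81, and -0.41 with a pseudocount of 32. Replicate 1 gave -3.75, with the 12 h signal under the floor and set to it, and replicate 3 gave 0.16. Neither gene was bright enough to test.

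IL6, the cytokine interleukin-6, was higher at 6 h and lower at 12 h within every same-numbered pair. The share of all probe sets with this pattern was not counted. Its probe set 205207_at read 46.0, 47.1 and 26.6 untreated, 52.9, 94.6 and 44.4 at 6 h, and 24.8 and 22.9 at 12 h. Both 12 h arrays lay under all untreated and all 6 h arrays, while the 6 h and untreated arrays overlapped. The log2 difference was 0.65 ± 0.53 (SE) for 6 h against untreated, -0.70 ± 0.59 for 12 h against untreated, and -1.35 ± 0.59 for 12 h against 6 h, with a 95% interval from -2.63 to -0.06 for the last. In a fit over all 41091 probe sets with 1 gene symbol, that interval ran from -2.77 to 0.08 and held 0. The difference of 12 h against untreated was -0.14 after quantile normalization and -0.12 with arrays centred on their median, where the median of all genes was 0.50, against -0.08 as deposited. The difference of 12 h against 6 h was -0.87 after quantile normalization, -1.02 without both replicate 2 arrays and -0.76 with centred arrays, where the median of all genes was 0.47, against -0.11 as deposited.

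PTX3, a secreted pattern-recognition pentraxin, was the member furthest below untreated cells at 6 h when each gene was read from its brightest probe set. It read 95.7, 125 and 53.2 untreated, 18.5, 37.2 and 45.1 at 6 h, and 84.7 and 29.0 at 12 h. All 6 h arrays lay under all untreated arrays, which held for 1.34% of all probe sets, and the 12 h arrays overlapped with both. The log2 difference at 6 h was -1.45 ± 0.56 (SE), with a 95% interval from -2.65 to -0.25, and -0.79 ± 0.62 at 12 h. The 6 h pairs differed in size, at -2.37 in replicate 1, -1.74 in replicate 2 and -0.24 in replicate 3. PTX3 has 1 probe set, so no second reading was possible.

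**Figure D4:**
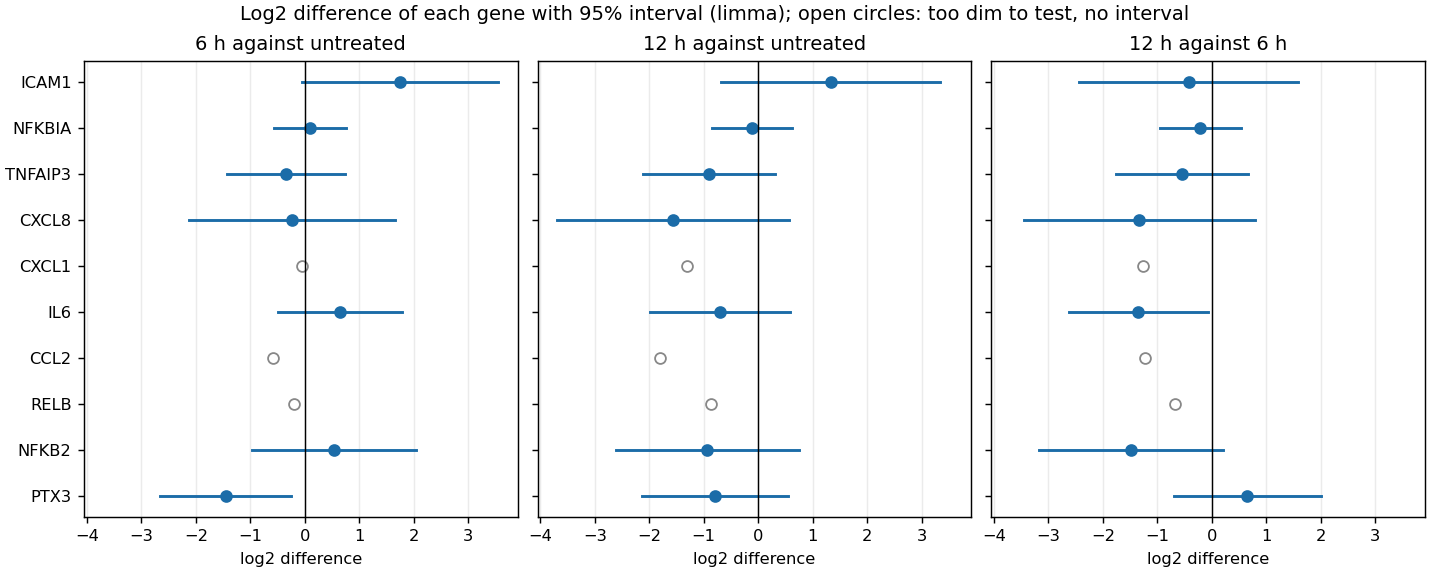
Log2 difference of each gene in the 3 comparisons, as points with the 95% interval of the limma fit, and open circles without an interval for CXCL1, CCL2 and RELB, which were too dim to test. Only PTX3 at 6 h and IL6 in 12 h against 6 h have intervals that leave out 0 in this fit, which has no replicate block, before any adjustment.

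Taking all 10 genes with their brightest probe set, 4 were above 0 and 6 below at 6 h, with a median log2 difference of -0.12, against 0.02 for all 19775 genes. At 12 h ICAM1 was above 0 and the other 9 were below, with a median of -0.89 against -0.08 for all genes, of which 44.2% were above 0. For 12 h against 6 h PTX3 was above 0 and 9 were below, with a median of -0.95 against -0.11. The 12 h group holds no replicate 2 array, and dim probe sets read higher on those arrays. The summed signal of 8 leukocyte markers was 116.4 to 538.1 untreated, 156.3 to 441.8 at 6 h and 128.2 to 199.6 at 12 h. For 7 endothelial markers it was 64.65 to 219.3, 36.29 to 331.9 and 66.91 to 118.6 in the same groups. For 6 epithelial markers it was 202.8 to 283.4, 199.4 to 294.2 and 187.6 to 232.8. The part of these sums in the members' values was not tested. Without both replicate 2 arrays the medians were -0.16 at 6 h, -0.55 at 12 h and -0.38 for 12 h against 6 h, and with the replicate number as a block they were -0.12, -0.52 and -0.50. At 6 h the median was 0.19 without untreated replicate 2 and -0.69 without 6 h replicate 2.

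Of the 17 member probe sets, 11.8% had groups that did not overlap for 6 h against untreated. The share was 23.5% for 12 h against untreated and 17.6% for 12 h against 6 h. Each share rests on a few probe sets and was not tested. At 6 h against untreated 1 of 17 was higher (ICAM1) and 1 lower (PTX3), against 1.67% and 1.34% of all probe sets, or 3.01% in either direction. At 12 h against untreated 1 was higher (ICAM1) and 3 were lower (1 each of ICAM1, IL6 and NFKB2), against 5.07% and 8.95%, or 14% in either direction. At 12 h against 6 h 3 were lower (1 each of CXCL8, IL6 and NFKB2) and 0 higher, against 9.06% and 3.71%, or 12.8% in either direction. ICAM1 is in both directions at 12 h.

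Other genes of the pathway were also without calls. A list of 18 further genes held subunits, inhibitors and IKK kinases, and also MAP3K7, TAB1, TAB2, TAB3 and MAP3K14, which act upstream of IKK. Of these 18 genes 17 were measured and tested, with 0 passing in either direction. Of the 17, 10 were above 0 at 6 h and 9 at 12 h. The median log2 difference was 0.10 at 6 h, against 0.02 for all genes tested, and 0.16 at 12 h, against 0.08. NFKB1, the canonical precursor subunit, read 132, 126 and 121 untreated, 169, 133 and 156 at 6 h, and 177 and 150.2 at 12 h. All treated arrays lay above all untreated arrays, which held for 0.548% of all probe sets. The closest were 133.5 on 6 h replicate 2 and 131.7 on untreated replicate 1. The log2 differences were 0.27 ± 0.27 (SE) at 6 h and 0.37 ± 0.30 at 12 h.

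RELA, the main activating subunit, averaged 107 ± 15.3 (SD, n = 3) untreated, 129 ± 33.5 (n = 3) at 6 h and 155 ± 54.8 (n = 2) at 12 h, and the groups overlapped. The IKK kinases overlapped as well, with IKBKB at 0.30 ± 0.29 (SE) and CHUK at 0.09 ± 0.29 on the log2 scale at 6 h, and 0.18 ± 0.33 and 0.20 ± 0.32 at 12 h. Of the inhibitor genes, NFKBIE differed by 0.43 ± 0.42 at 12 h and NFKBIB by -0.41 ± 0.77. NFKBID, a nuclear IkappaB protein, had the lowest value at -2.61 ± 1.26, with 4.41 and 5.47 at 12 h against 22.6, 120 and 9.94 untreated.

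Receptors and adaptors that lead to IKK had 16 of 22 genes tested, with 10 above 0 at 6 h (median 0.16) and 10 at 12 h (median 0.05), and 0 passed. At 12 h the signalling ubiquitin ligase TRAF6 differed by 0.61 ± 0.46 (SE) and the adaptor MYD88 by 0.47 ± 0.32, while the receptor TLR4 differed by -1.76 ± 1.08 and RNF31, of the linear ubiquitin ligase, by -1.14 ± 1.07. MYD88 read 512 and 400.0 at 12 h, against 339, 284 and 363 untreated, with no overlap. At 12 h, 5.07% of all probe sets were higher without overlap.

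Negative regulators had 10 of 12 genes tested, with 5 above 0 at 6 h (median -0.03) and 8 at 12 h (median 0.26), and 0 passed. OTULIN, which removes linear ubiquitin chains, differed by 1.53 ± 0.49 (SE) and TNIP1, a partner of TNFAIP3, by 0.53 ± 0.41 at 12 h. TNIP2, a related TNFAIP3-binding protein, read 134, 178 and 106 untreated, 55.2, 45.7 and 105.2 at 6 h, and 116 and 118 at 12 h, with a log2 difference of -1.08 ± 0.37 (SE) at 6 h. The 6 h arrays of TNIP2 lay under all untreated arrays, which held for 1.34% of all probe sets. Replicate 3 of both groups lay within 1 unit of signal. ITCH, a ubiquitin ligase, differed by -0.12 ± 0.39 at 12 h.

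Further textbook target genes were mostly dim, with 12 of 34 tested. Among those 12, 2 were above 0 at 6 h (median -0.30) and 5 at 12 h (median -0.02), and 0 passed. Over all 30 measured target genes, dim ones included as for the members, 11 were above 0 at 6 h (median -0.18) and 9 at 12 h (median -0.42). IL11, a cytokine of the IL6 family, was bright, at 2003, 1187 and 1531 untreated, 450, 2261 and 2279 at 6 h, and 2520 and 1812 at 12 h. SOD2, the mitochondrial superoxide dismutase, differed by -0.49 ± 0.46 (SE) at 6 h and 0.14 ± 0.52 at 12 h. PTGS2, the inducible cyclooxygenase, differed by -1.24 ± 0.96 and -0.28 ± 1.08, IL1A by -0.75 ± 0.94 and -0.78 ± 1.05, and the protease MMP9 by -0.62 ± 0.58 and -1.17 ± 0.65. TNFAIP2 differed by 0.54 ± 0.35 at 12 h. TNF itself read 19.2, 83.6 and 1.46 untreated, 12.2, 50.2 and 11.2 at 6 h, and 28.8 and 14.3 at 12 h, and VCAM1, an adhesion molecule like ICAM1, read 3.29 and 4.08 at 12 h, against 27.0, 48.8 and 1.31 untreated. Both were too dim to test, and BIRC3 was not analysed here.

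Of the receptors for the encoded proteins, 4 of 9 were tested. IL6ST, the signalling receptor subunit for IL6, averaged 1020 ± 286 (SD, n = 3) untreated, 1192 ± 271 (n = 3) at 6 h and 1275 ± 227 (n = 2) at 12 h, with groups that overlapped, and IL6R differed by -0.22 ± 0.46 (SE) at 12 h. The integrin chains ITGB2 and ITGAM, which together bind ICAM1 on leukocytes, differed by 1.34 ± 1.09 and -0.73 ± 1.22 at 12 h, and both read highest on untreated replicate 2, at 71.6 and 109.0.

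**Figure D5:**
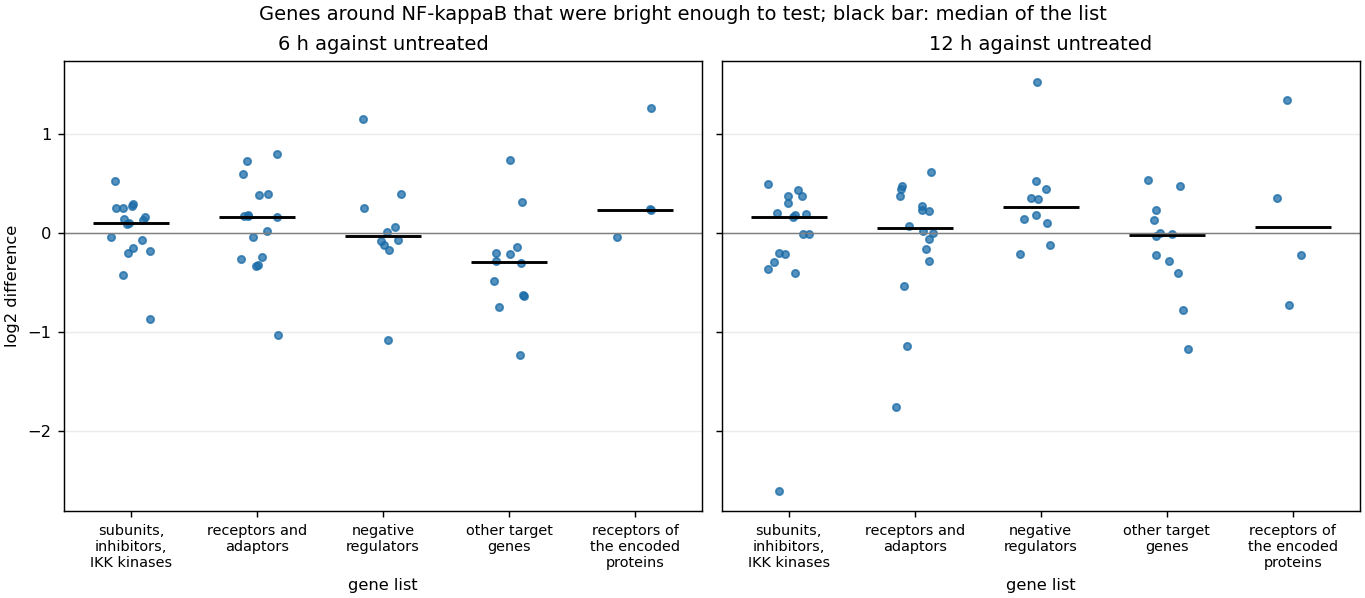
Log2 difference of every tested gene in 5 lists around NF-kappaB at 6 h and at 12 h against untreated, with 1 point for a gene and a black bar for the list's median. The medians lie between -0.30 and 0.26, and the lowest point is NFKBID at 12 h. The list of subunits, inhibitors and IKK kinases also holds MAP3K7, TAB1, TAB2, TAB3 and MAP3K14.

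Genes whose pattern over the 8 arrays was most like that of ICAM1 215485_s_at were sought after the mean of each replicate number was taken off. TOLLIP and EXOG (both r = 0.976), EPHA10 (0.974), SUV39H1 (0.97) and SKI (0.969) came first among 12062 genes. TOLLIP read 94.6, 75.1 and 86.9 untreated, 104, 92.2 and 124 at 6 h, and 105 and 121 at 12 h. With 8 arrays and so many genes, values of this size describe the ranking only. The 6 other tested members stood far from the top, with IL6 at 0.331, NFKB2 at 0.042, NFKBIA at -0.0687, TNFAIP3 at -0.344, CXCL8 at -0.392 and PTX3 at -0.524.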

How the data were processed

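RNA from 8 samples was hybridised as biotin-labelled cRNA, 1 Affymetrix array per sample, per the labels' protocols. Each deposited value is a linear intensity of 1 probe set, computed by MAS5 per the submitters' processing notes, with version and settings not given in the sources used here. The table held 54675 probe sets. Controls (62) were left out, 41091 had 1 gene symbol, 1801 several, and 11721 were unnamed here. Signals under the 10th percentile (2.386) were set to it before log2. Each gene took its brightest probe set, and those with a mean log2 signal above the median of all probe sets (4.22) went into limma 3.58.1 under R 4.3.3 (lmFit, eBayes with a trend, 3 groups in 1 fit, two-sided, Benjamini-Hochberg over 12063 genes, threshold 0.05). The fit was checked on simulated data with independent noise, which lack the shared deviation of same-numbered arrays. That check required only that mean estimates lay near the differences put in.

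Members and gene lists were chosen with earlier results of these data known. Genes named from the lists were the 2 highest and 2 lowest tested at 12 h, plus NFKB1, RELA, IKBKB, CHUK, TNF, PTGS2, SOD2, BIRC3 and VCAM1, while IER3, LIF and TRAF3 were named after their values were seen. Same-numbered arrays deviated together (r of deviations from group means 0.108 to 0.637 in 7 pairs, against -0.576 to 0.333 in 14 others), so the replicate number was also used as a block. Motif letters were searched in RefSeq promoters. Other scalings, floors, filters, probe-set choices, variance models, array weights and left-out arrays were tried. The number of arrays limits the precision.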

Additional observations from a re-analysis of the deposited data

Results flagged for a closer look

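IL6 (205207_at) drew attention because its same-numbered pairs went one way at 6 h and the other way at 12 h. This pattern was sought in the 17 member probe sets and in the genes that the naming rule took from the lists. Only IL6 had it, and the share of all probe sets with the pattern was not counted. Against the untreated array of the same number the log2 difference was 0.20, 1.01 and 0.74 at 6 h and -0.89 and -0.22 at 12 h. Set directly against each other, 12 h against 6 h gave -1.35 (limma, adjusted p = 1), and the 21 alternatives ran from -1.57 to -0.75, so the difference between the times did not pass the test.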

How the results depend on the processing

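Over 22 alternatives the number of genes called was 0 in each of the 3 comparisons, with 45 to 581 genes at an unadjusted p under 0.05 for 6 h against untreated, 34 to 634 for 12 h against untreated and 33 to 599 for 12 h against 6 h, and no member was called. The members' median kept its sign under 18 of 22 alternatives at 6 h (range -0.69 to 0.19), 22 of 22 at 12 h (-1.15 to -0.30) and 22 of 22 for 12 h against 6 h (-1.12 to -0.31). It moved by more than the spread between arrays only for 12 h against 6 h with a pseudocount of 32, to -0.31, a scale that compresses dim genes. With the replicate number as a block the medians were -0.12, -0.52 and -0.50, and the count of calls stayed at 0. Centring arrays on their median put all genes at 0.50 at 12 h, against -0.08 as deposited. At 6 h against untreated the sign turned for NFKBIA and TNFAIP3 without 6 h replicate 1, and for CXCL8 without untreated replicate 2 or without 6 h replicate 3. It also turned for ICAM1 and NFKBIA with probe sets averaged, and under 1 or more alternatives for CXCL1, CCL2 and RELB. At 12 h against untreated it turned for ICAM1, NFKBIA, CXCL1 and RELB. For 12 h against 6 h it turned for ICAM1, NFKBIA, TNFAIP3, RELB and PTX3. Signals at or under the floor on at least 1 array limit CCL2 and the dimmer probe sets of ICAM1, CXCL8 and NFKB2.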

Other observations

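The array of 6 h replicate 1 held the lowest signal of 6 of the 12 tested target genes outside the members and of 4 of the 10 negative regulators, against 16% of all 12063 genes. The other lists did not stand above that share. The list of subunits, inhibitors, IKK kinases and genes upstream of IKK had 1 of 17. Receptors and adaptors had 2 of 16, receptors for the members' proteins 0 of 4, and the members 1 of 7. This was noticed after the values were seen and was not tested. IL11 read 450 there and 1187 to 2520 on the other 7 arrays, and IER3, an early response gene, 905 against 1480 to 2374. LIF, a cytokine of the IL6 family, read 50.04 against 77.7 to 180.2, and TRAF3, an adaptor that restrains the non-canonical branch, 126 against 227 to 405. The 1 member was PTX3, at 18.5. The array also had an ACTB 3′ to 5′ ratio of 1.73 and a GAPDH ratio of 0.978, and its part in these values was not tested. The members were lowest most often on another array, 12 h replicate 3. It held the lowest signal of 3 of the 7 tested members, against 8.95% of all genes, which was not tested either.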
